A study of Mus musculus with 4 samples.

Results

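Cytokine receptors and innate immune signalling genes were followed through maps of N6-methyladenosine (m6A), the most common internal mark of messenger RNA, in glia sorted from mouse cortex. The genes were chosen by name alone: interleukins and their receptors (Il), the tumour necrosis factor superfamily (Tnf), interferons and their receptors (Ifn), interferon regulatory factors (Irf), Stat, Jak, Socs, Nfkb, Traf, Toll-like receptors (Tlr), and chemokines with their receptors (Ccl, Ccr, Cxcl, Cxcr). A total of 49 of the 5526 named genes with a listed site carried such a name. They held 103 of the 10598 distinct positions in named genes, in 108 listings over 4 libraries. The name also brought in 4 genes whose products are not themselves parts of these pathways as usually drawn: Irf2bp1, Irf2bp2, Irf2bpl and Tnfaip1.

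Every mouse had the genotype APOBEC1-YTH, in which the cytidine deaminase APOBEC1 is joined to the YTH domain that binds m6A, and every mouse received tamoxifen, so that no untreated or transgene-free group stands beside them. Dosing began at an age of 10 weeks with 20 mg/kg, repeated every 24 hours for 5 days, and cortex was collected 7 days after the last dose. Astrocytes were sorted by the surface antigen ACSA2 and microglia by CD11b, with 2 libraries of each. The labels name neither the promoter or Cre line behind the transgene nor the mice behind each library. In GLORI, unmethylated adenosine is chemically deaminated and read as G, and the m6A level of a site is the percent of reads that still carry A. The tables list sites with their levels and no read depth, so a gene or site that is not listed may be unmethylated, too weakly methylated to be listed, or too little read.

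Cytokine receptors sit at the cell surface and pass the signal through JAK kinases to STAT transcription factors, while SOCS proteins damp that chain. Toll-like receptors sense microbial molecules and, like tumour necrosis factor receptors, act through TRAF adaptors and NF-kB. Microglia, the resident macrophages of the brain, are the main carriers of many of these receptors there, and astrocytes both make and answer cytokines. Methylation of an mRNA is read by YTH proteins, which can shorten the life of the transcript, a form of control described for several immune transcripts.

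The labels of the replicate 2 libraries ran against marker genes, and every statement by label below carries that limit. Of 15 astrocyte markers, 13 had a listed site in astrocyte 1 and 10 in microglia 2, against 1 in astrocyte 2 and 0 in microglia 1. Of 15 microglia markers, 11 had a site in microglia 1 and 13 in astrocyte 2, against 2 in astrocyte 1 and 0 in microglia 2. The 8 oligodendrocyte markers had sites in 7 genes in each of astrocyte 1 and microglia 2, and in 0 in the other libraries. Of 8 endothelial and mural markers, astrocyte 1 listed 2, microglia 2 listed 3 and the others none, and of 8 neuron markers 1 was listed, in astrocyte 1. Of 8 markers of border macrophages and blood myeloid cells, 1 had a site in astrocyte 2 and in microglia 1 and 0 in the rest. The part of these other cells in the immune gene sites was not tested. Fewer cells of a type and less RNA per cell cannot be told apart in such sorted bulk samples.

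The immune genes took a larger share of the listings in astrocyte 2 and microglia 1 than in astrocyte 1 and microglia 2. They were 24 of 1716 listed genes in astrocyte 2, or 1.40% (exact 95% interval 0.898 to 2.07), and 12 of 940 in microglia 1, or 1.28% (0.661 to 2.22). In astrocyte 1 they were 22 of 3152 genes, or 0.698% (0.438 to 1.05), and in microglia 2 they were 12 of 2609, or 0.460% (0.238 to 0.802). Counted by sites the gap was wider: 43 of 2348 sites in astrocyte 2 (1.83%, 1.33 to 2.46) and 22 of 1066 in microglia 1 (2.06%, 1.30 to 3.11), against 25 of 4790 in astrocyte 1 (0.522%, 0.338 to 0.770) and 18 of 3782 in microglia 2 (0.476%, 0.282 to 0.751). By sites, the intervals of astrocyte 2 and microglia 1 lay above those of the other libraries, while by genes they overlapped in part. The intervals cover the counting of sites and genes only.

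The shares therefore did not follow the labels. The mean share of genes was 1.05% under the astrocyte label and 0.868% under the microglia label, a difference of 0.180 points (two-sided exact permutation test over 4 libraries, p = 0.667). With 2 libraries against 2 this test cannot give a p below 0.333. In the replicate 1 libraries alone the difference turned to -0.579 points, with no replicate and no test, and counted as a share of sites over all 4 libraries it was -0.0932 points.

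**Figure D1:**
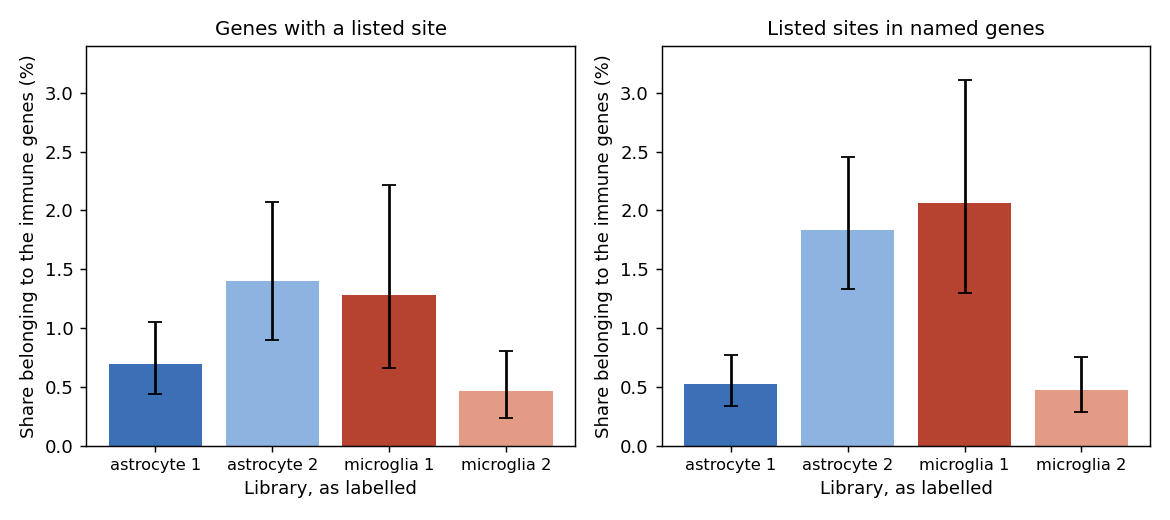
Share of listed genes (left) and of listed sites in named genes (right) that belong to the immune genes, in percent, for each library as labelled; bars give the share and lines its exact 95% interval. In the right panel astrocyte 2 at 1.83% and microglia 1 at 2.06% have intervals that do not meet those of the other libraries.

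Most genes were listed sparsely. Of the 49 genes, 27 had 1 position, 5 had 2, 10 had 3, 3 had 4, 2 had 5 and 2 had 7, Il10ra among them. In RefSeq names, 263 protein-coding symbols fit the same name pattern, and 49 of them (18.6%) had a site, against 21.96% of all 21900 protein-coding symbols. By family, sites were listed in 5 of 12 Tlr, 3 of 7 Stat, 2 of 3 Jak, 3 of 8 Nfkb and 2 of 7 Socs genes. They were listed in 15 of 83 Il, 8 of 41 Tnf and 3 of 26 Ifn genes, and the Irf genes without their binding proteins had 2 of 9. Sites were found in 1 of 10 Traf and 2 of 11 Ccr genes, and in 0 of 6 Cxcr, 0 of 25 Ccl and 0 of 12 Cxcl genes, the last being the chemokines themselves. Families were formed by name alone and can take in genes that are not family members, such as Tnfaip1 under Tnf. Only the Irf count leaves such genes out. No difference between families was tested. Depth over each transcript is unknown, so a family without sites may simply have been unread.

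**Figure D2:**
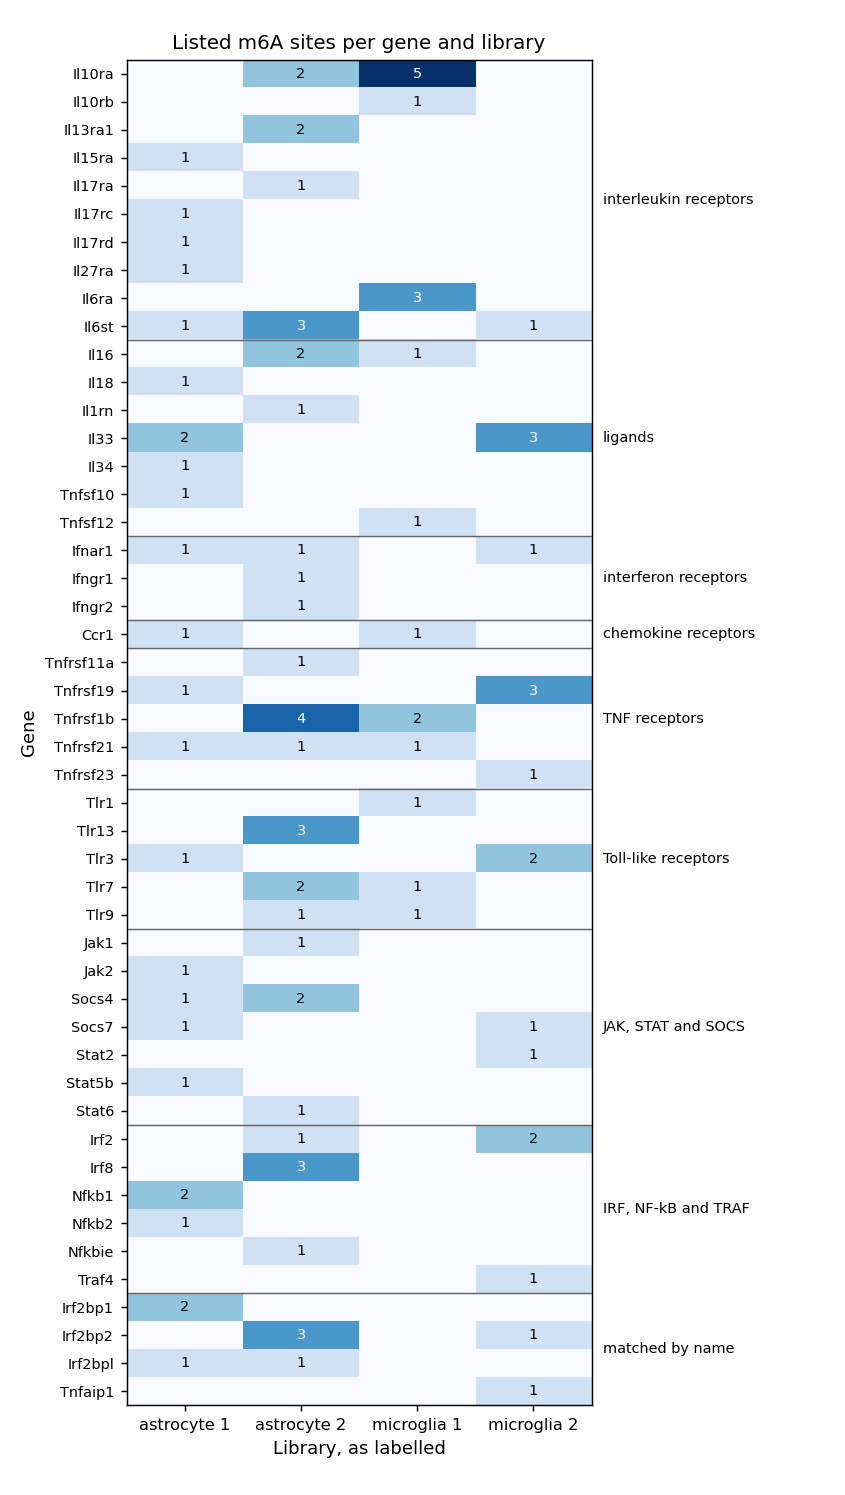
Number of listed sites in the genes described (rows, grouped by role) in each library (columns, as labelled); darker cells hold more sites, and empty cells hold none. Il10ra in microglia 1 has 5, and Tnfrsf1b has 4 in astrocyte 2 and 2 in microglia 1.

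Among interleukin receptors, Il10ra, the chain that binds interleukin-10, an inhibitory cytokine, had 7 positions on the minus strand of chromosome 9 within 1800 bases. Microglia 1 listed 5 of them, at 47.1% (position 45165456), 87.5% (45165563), 42.9% (45165819), 62.5% (45166271) and 60% (45167256). Astrocyte 2 listed the other 2, at 33.3% (45166040) and 86.7% (45167138), and neither astrocyte 1 nor microglia 2 listed any. The gene was thus shared by 2 libraries that had no base in common in it. Its partner chain Il10rb had 1 site, at 40%, in microglia 1. Positions here and below are 1-based in the build mm39, and whether they lie in exons, introns or UTRs was not determined.

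The receptor for interleukin-6 showed a different pattern in each chain. Il6ra, the specific chain, had 3 sites on chromosome 3 and all were in microglia 1, at 100% (position 89776964), 83.3% (89777110) and 66.7% (89777862). Il6st, the signalling chain shared by the whole interleukin-6 family, had 5 positions on chromosome 13 within 1075 bases, spread over 3 libraries. Astrocyte 1 listed it at 61.5% (position 112641869) and microglia 2 at 46.2% (112642075), while astrocyte 2 listed 50% (112642197), 100% (112642252) and 33.3% (112642944). No position of either gene was listed in more than 1 library.

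The remaining interleukin receptors had 1 or 2 sites in a single library. Astrocyte 1 listed Il15ra, which presents interleukin-15 to other cells, Il17rc, a chain of the interleukin-17 receptor, Il17rd, its relative that restrains fibroblast growth factor signalling, and Il27ra, each with 1 site at 100%. Astrocyte 2 listed Il13ra1, a chain for interleukin-13 and interleukin-4, at 100% and 80%, and Il17ra, the common chain of the interleukin-17 receptors, at 75%. Together the 10 interleukin receptor genes had 9 sites in microglia 1 and 8 in astrocyte 2, against 5 in astrocyte 1 and 1 in microglia 2.

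The ligands were led by Il33, a nuclear cytokine released by damaged cells and made by astrocytes and oligodendrocytes, which had 4 positions on the plus strand of chromosome 19, in astrocyte 1 and microglia 2 alone. The base at position 29936315 stood at 91.7% in astrocyte 1 but at 33.3% in microglia 2. Astrocyte 1 also listed 44.4% at 29936710, and microglia 2 listed 50% at both 29936605 and 29937451. The gap of 58.3 points at the shared base was large for these libraries: over the 618 named-gene sites that both listed, the SD of the difference was 19.7 points, and 7 sites, Il33 among them, lay at least as far apart. Of the 368 shared sites below 100% in both libraries, 4 lay that far apart, with an SD of 20.1 points.

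The other ligands had few sites. Il16, the precursor of a chemoattractant, had 3 positions on chromosome 7, at 100% in microglia 1 (83292963) and at 37.5% (83301151) and 100% (83301408) in astrocyte 2. Astrocyte 1 listed Il18, a cytokine of the interleukin-1 family, at 44.4%, Il34, a second ligand of the microglial receptor Csf1r, at 30%, and Tnfsf10, the death ligand TRAIL, at 100%. Il1rn, the antagonist of the interleukin-1 receptor, stood at 80% in astrocyte 2, and Tnfsf12, the ligand TWEAK, at 22.2% in microglia 1. At a median of 50% over their listings, the 7 ligand genes stood below the other role groups, whose medians ran from 60% to 100%. This difference was not tested.

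Interferon receptors had 5 positions. Ifnar1, a chain of the type I interferon receptor, had 3 on chromosome 16 within 1549 bases, each in another library: 100% at position 91302342 in astrocyte 1, 100% at 91303472 in microglia 2 and 73.3% at 91303891 in astrocyte 2. Both chains of the interferon gamma receptor were listed in astrocyte 2 alone, Ifngr1 at 42.9% and Ifngr2 at 36.4%. No interferon receptor was listed in microglia 1, which had the shortest list, 940 of the 5526 named genes.

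Of the chemokine receptors, Ccr1, which binds several inflammatory chemokines, had 1 position, 123763443 on the minus strand of chromosome 9. It stood at 100% in both astrocyte 1 and microglia 1, and in neither replicate 2 library was the gene listed.

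Tnfrsf1b, the second tumour necrosis factor receptor, had 5 positions on chromosome 4, in astrocyte 2 and microglia 1 alone. Position 144941628 stood at 100% in both. Astrocyte 2 also listed 86.7% at 144939701, 100% at 144941011 and 100% at 144942462, and microglia 1 listed 100% at 144942302. All but 1 of its listings were thus at 100%. Tnfrsf19, the receptor TROY, known from neural progenitors and astrocytes, was listed in the other libraries: at 100% (position 61208344 of chromosome 14) in astrocyte 1, and at 33.3% (61202212), 60% (61203848) and 65% (61283822) in microglia 2. Tnfrsf21, the death receptor DR6, was listed at a different base of chromosome 17 in each of 3 libraries, at 100% in astrocyte 1 (43376015), 100% in astrocyte 2 (43398830) and 50% in microglia 1 (43399959). Tnfrsf11a, the receptor RANK, stood at 50% in astrocyte 2, and Tnfrsf23, a decoy receptor for TRAIL, at 100% in microglia 2.

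The 5 Toll-like receptors with sites all sense nucleic acids, apart from Tlr1, a partner of Tlr2 in sensing bacterial lipopeptides. Tlr7, a receptor for single-stranded RNA, was listed on chromosome X in astrocyte 2, at 33.3% (position 166091103) and 100% (166091111), and in microglia 1, at 100% (166089987). Tlr9, a receptor for unmethylated DNA, stood at 87.5% in astrocyte 2 and at 60% in microglia 1, at different bases of chromosome 9. Tlr13, which senses bacterial ribosomal RNA, had 3 positions on chromosome X in astrocyte 2, at 68.8% (105201816), 100% (105202071) and 100% (105202077). Tlr1 had 1, at 100%, in microglia 1. These 4 receptors had no site in astrocyte 1 or microglia 2. Tlr3, a receptor for double-stranded RNA, had its sites in those libraries instead: 71.4% in astrocyte 1 (position 45852074 of chromosome 8) and 78.6% (45850785) and 66.7% (45856100) in microglia 2.

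The JAK, STAT and SOCS genes had 9 positions in 7 genes and none in microglia 1. That library listed the fewest genes, 940 of the 5526 named genes, and absences from it were not tested. The kinase Jak1 stood at 91.7% in astrocyte 2 and the kinase Jak2 at 100% in astrocyte 1. Stat2, a part of the type I interferon response, stood at 57.1% in microglia 2, Stat5b, which acts downstream of growth hormone and several cytokines, at 100% in astrocyte 1, and Stat6, the factor of interleukin-4 signalling, at 100% in astrocyte 2. Socs7 had 1 position, 97286259 on chromosome 11, at 85.7% in astrocyte 1 and 87.5% in microglia 2, a gap of 1.79 points and far inside the SD of 19.7 points between these libraries. Socs4 had 3 positions on chromosome 14, all at 100%: 47528721 in astrocyte 1, and 47527436 and 47527502 in astrocyte 2.

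The Irf, Nfkb and Traf genes likewise had no site in microglia 1, the library with the shortest list. The NF-kB subunits Rel and Rela, outside the name pattern, each had 1 site there. Irf8, a factor required for microglia and other myeloid cells, had 3 positions within 94 bases of chromosome 8, all in astrocyte 2, at 57.1% (121482252), 50% (121482334) and 50% (121482346). Irf2, a repressor of interferon targets, stood at 12.5% in astrocyte 2 (position 47192881 of chromosome 8), the lowest level of any of the 108 listings. In microglia 2 it stood at 60% at both 47299521 and 47299597, so that its positions span 106716 bases. Nfkb1, a subunit of NF-kB, had 2 sites at 100% in astrocyte 1, Nfkb2 had 1 at 66.7% in the same library, Nfkbie, an inhibitor of NF-kB, stood at 100% in astrocyte 2, and Traf4, an adaptor, at 57.1% in microglia 2. No other Traf gene was listed.

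The genes taken in by their names were listed in 3 libraries. Irf2bp2, a co-repressor that binds Irf2, stood on chromosome 8 at 80% (127315458), 60% (127316183) and 100% (127320085) in astrocyte 2 and at 75% (127319665) in microglia 2. Its relative Irf2bpl stood at 100% in astrocyte 1 and 80% in astrocyte 2, and Irf2bp1 had 2 sites at 100% in astrocyte 1. Tnfaip1, an adaptor of a ubiquitin ligase, stood at 60% in microglia 2. Leaving these genes and Il16 out left the direction of the share of genes and of the median level between the labels as it was.

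Positions were seldom repeated between libraries. Of 103 positions, 5 (4.85%) were listed in 2 libraries and none in more, where the share over all named-gene positions listed in 2 or more libraries was 9.72%. They included those in Ccr1, Il33, Socs7 and Tnfrsf1b given above. In 3 of them both libraries gave the same level, in Socs7 the levels differed by 1.79 points, and in Il33 by 58.3. The ties in Ccr1 and Tnfrsf1b were at 100%, the top of the scale, a level common in those pairs. Of 333 named-gene sites shared by astrocyte 1 and microglia 1, 58 were below 100% in both. For astrocyte 2 and microglia 1 it was 67 of 167. At the level of genes, 18 of 49 (36.7%) were listed in 2 or more libraries, near the 38.9% of all named genes.

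Which libraries shared a gene did not follow the labels. Astrocyte 2 and microglia 1 shared 7 immune genes, which is 58.3% of the 12 in microglia 1 and 29.2% of the 24 in astrocyte 2. For all named genes the same pair shared 325, or 34.6% of the shorter list and 18.9% of the longer. Astrocyte 1 and microglia 2 shared 6, or 50% of the 12 and 27.3% of the 22, where all named genes gave 53.1% and 44.0%. The other pairs with different labels shared 2 (astrocyte 1 and microglia 1, 16.7% of the shorter list against 47.1% for all named genes) and 4 (astrocyte 2 and microglia 2, 33.3% against 34.6%). The astrocyte pair shared 5 (22.7% against 40.1%) and the microglia pair 0 (0% against 34.6%). No test was made of these shares, since genes are not replicates.

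**Figure D3:**
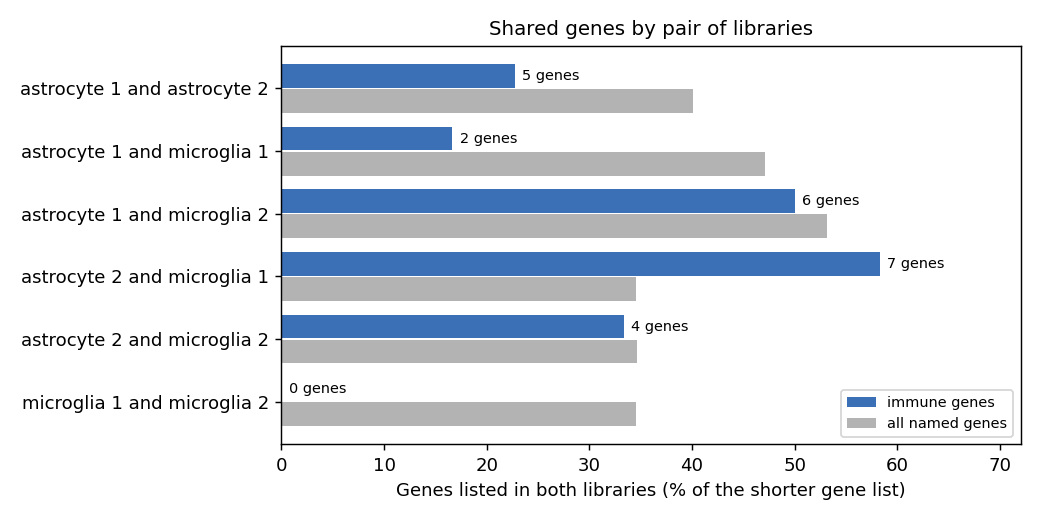
Genes listed in both libraries of a pair as a percent of the shorter of their gene lists, for the immune genes (blue, with the number of shared genes) and all named genes (grey). The microglia pair shares 0 immune genes, and astrocyte 2 with microglia 1 shares 7.

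By gene, 6 were listed in astrocyte 2 and microglia 1 and nowhere else, among them Il10ra, Il16, Tlr7, Tlr9 and Tnfrsf1b. Another 4 were listed in astrocyte 1 and microglia 2 and nowhere else: Il33, Socs7, Tlr3 and Tnfrsf19. A further 2 (Irf2bpl and Socs4) were listed in both astrocyte libraries alone and 0 in both microglia libraries alone. Ccr1 was listed in both replicate 1 libraries, and Irf2 and Irf2bp2 in both replicate 2 libraries. Il6st, Ifnar1 and Tnfrsf21 had sites in 3 libraries, no gene had sites in all 4, and 31 had sites in 1. Shares of all named genes with each of these patterns were not computed, so the counts are not read as particular to the immune genes. The share listed in 2 or more libraries was 36.7%, near the 38.9% of all named genes.

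Compared by label, 0 of 103 positions were shared by the astrocyte libraries while missing from both microglia lists, against 0.651% of all named-gene positions. The reverse held for 0 of 103, against 0.396%. No position was listed in all 4 libraries, so the level of an immune gene could not be tested between the labels at any base. Over the whole table, limma on the log2 odds of the level tested 354 sites. It called 0 (0%) after Benjamini-Hochberg adjustment at 0.05, while 16 had an unadjusted p below 0.05, and 0 of the tested sites were in the immune genes.

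The levels of the immune genes stood above those of named genes at large in astrocyte 1, below them in microglia 1 and near them in the other libraries, with no test of these gaps. In astrocyte 1 the 25 listings had a median of 100%, from 30% to 100%, and 17 of them (68%) stood at 100%, while all named-gene sites of that library had a median of 66.7% with 27.3% at 100%. In astrocyte 2 the 43 listings ran from 12.5% to 100% with a median of 80%, the same as the median of all its named-gene sites, and 34.9% stood at 100% against 37.9%. In microglia 1 the 22 listings ran from 22.2% to 100% with a median of 75%, below the 100% of all named-gene sites there, and 40.9% stood at 100% against 60.3%. In microglia 2 the 18 listings ran from 33.3% to 100% with a median of 60%, close to 58.9%, and 11.1% stood at 100% against 15.3%.

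Both libraries labelled astrocyte thus had higher medians than both labelled microglia, with a mean of 90% against 67.5%. The difference of 22.5 points had an exact two-sided permutation p of 0.333, the smallest that 4 libraries can give, and an adjusted p of 0.833 over the 5 per-library measures tested. It shrank to 1.04 points over sites below 100% (means 61.0% and 60%, exact permutation p = 1). The other measures were the share of genes, the share of sites (exact permutation p = 1), the percent of listings at 100% (means 51.4% and 26.0%, exact permutation p = 0.667) and the sites per listed gene (means 1.46 and 1.67, exact permutation p = 0.667), and none had an adjusted p under 0.833.

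**Figure D4:**
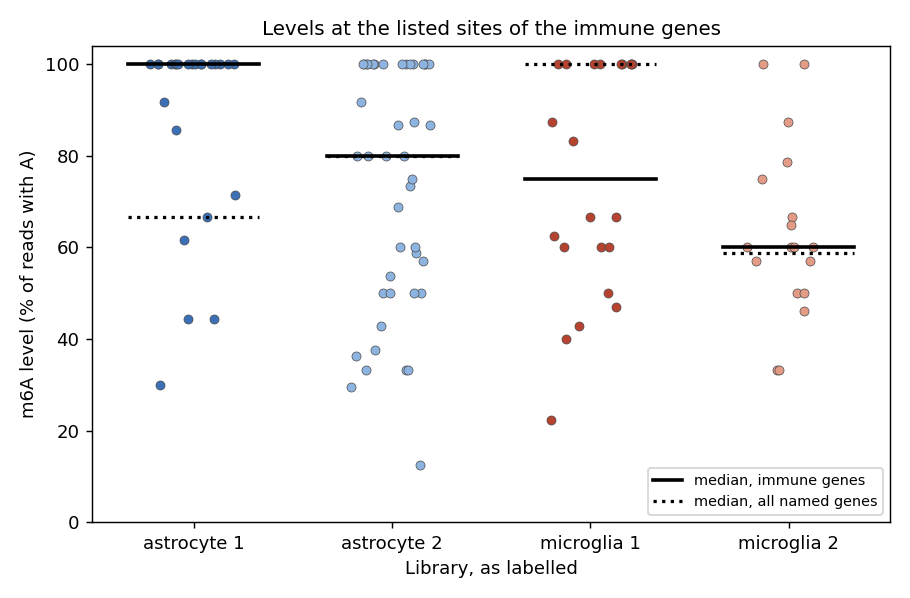
m6A level in percent at each listed site of the immune genes (points, spread sideways for legibility) in each library as labelled, with the median of these sites (solid line) and of all named-gene sites of the library (dotted line). In astrocyte 1 most points stand at 100%, above the dotted line at 66.7%; in astrocyte 2 both lines coincide at 80%; in microglia 1 the solid line at 75% lies below the dotted line at 100%.

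Sites per listed gene also differed by library. Each listed immune gene had 1.79 sites on average in astrocyte 2, against 1.37 for all named genes, and 1.83 against 1.13 in microglia 1. In microglia 2 it was 1.5 against 1.45, and in astrocyte 1 it was 1.14 against 1.52. Only in astrocyte 1 of the 4 libraries were the immune genes more thinly listed than named genes at large, a difference that was not tested.

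Each listed adenosine lies in the middle of a 3-mer, which was GAC or AAC throughout. GAC made up 74 of the 103 positions (71.8%, exact 95% interval 62.1 to 80.3), and AAC made up 29. Over all named-gene positions GAC made up 67.3%, inside that interval. Pooled over the libraries, the median level of the immune gene listings was 80% at GAC and 79.3% at AAC, against 64.3% and 70% over all named genes. These pooled medians also carry the mix of libraries, which differed. Astrocyte 2 and microglia 1 gave 43 and 22 of the 108 immune listings, against 2348 and 1066 of the 11986 in named genes. No test was made of these medians. By library, AAC made up 4 of 22 immune sites in microglia 1 (18.2%), against 43.2% of all its named-gene sites. In astrocyte 1 it was 5 of 25 (20%), against 32.4%. In astrocyte 2 it was 15 of 43 (34.9%), against 35.0%, and in microglia 2 it was 6 of 18 (33.3%), against 30.6%. These counts are small and were not tested. A lower-case adenosine, by usual practice a mark of repeat sequence, was found at 6 of the 103 positions (5.83%), against 4.89% over all named-gene positions. None of the sequence around the sites was used here.

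Within genes, neighbouring positions lay at a median of 421 bases from each other over 54 neighbouring pairs, against 816 bases over all named genes. The pairs pool positions from different libraries, genes with many positions give more pairs, and the difference was not tested. Of the 54 pairs, 9 (16.7%) lay within 100 bases of each other, near the 15.9% of all named genes. The closest were in astrocyte 2: the last positions of Tlr13 were 6 bases apart and both at 100%, those of Tlr7 were 8 bases apart at 33.3% and 100%, and those of Irf8 were 12 bases apart and both at 50%. Close neighbours can be covered by the same reads, so these levels are not independent of each other.

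Other genes of the same pathways, outside the name pattern, were counted from a list of 85. A total of 41 (48.2%) had a site in any library, against 21.96% of all protein-coding symbols, in a list chosen with earlier results known. As a share of the genes each library listed, they made up 1.46% in astrocyte 2 (25 of 1716), 1.38% in microglia 1 (13 of 940), 0.575% in microglia 2 (15 of 2609) and 0.539% in astrocyte 1 (17 of 3152). As for the name-matched genes, the higher shares were in astrocyte 2 and microglia 1, which was not tested. The subunits Rel and Rela of NF-kB each had 3 positions. Rel was listed at 50% and 40% in astrocyte 2 and at 100% in microglia 1, while Rela stood at 33.3% in astrocyte 1, at 80% in microglia 2 and at 60% in microglia 1. The genes with 3 or more sites in a library were Cx3cr1, the fractalkine receptor, Csf1r, the receptor of Il34, the ligand Tgfb1, its receptors Tgfbr1 and Tgfbr2, and Tab2, an adaptor between TRAF proteins and NF-kB activation. Of these, Cx3cr1, Csf1r, Tgfb1 and Tgfbr2 were listed in astrocyte 2 and microglia 1 alone. Cx3cr1 and Csf1r are also among the microglia markers counted above, so for them this repeats the marker result. Tgfb1 stood between 60% and 100% over 5 positions and Tgfbr2 between 43.3% and 85.7% over 4, and Tgfbr2 was listed at the same base of chromosome 9 (115917349) at 64.7% in astrocyte 2 and 80% in microglia 1. Tgfbr1 was listed in those libraries and in microglia 2, and Tab2, at 50% to 100%, in every library but microglia 1.

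Some of these genes join directly to the members described above. Unc93b1, which carries nucleic acid-sensing Toll-like receptors to endosomes, had 2 sites in microglia 1 and 1 in astrocyte 2, at 33.3% to 55.6%, in the same libraries as Tlr7 and Tlr9. Tlr13 was listed in astrocyte 2 alone, and Tlr3 in astrocyte 1 and microglia 2, where Unc93b1 had no site. Ticam1, the adaptor of Tlr3, had 1 site at 100% in astrocyte 1, a library that also listed Tlr3. Lifr, which pairs with the product of Il6st, was listed at 33.3% to 100% over 4 positions, in the same 3 libraries as Il6st. Cntfr, which joins the same complex for ciliary neurotrophic factor, had 1 site in astrocyte 1 and 1 in microglia 2, at 17.2% and 48.3%. These genes, and Rel and Rela, were singled out after their values were seen.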

How the data were processed

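GLORI libraries from 4 sorted samples, 2 labelled astrocyte and 2 microglia, were compared. Sites were identified with GLORI-tools per the labels' design text, and the submitters' processing notes name STAR and mm39; calling thresholds were not given in the sources used here. Each deposited table has 7 columns and gives the level as a fraction, printed here as a percent (lowest 10% in 3 tables, 10.05% in the other), without coverage, so the depth behind each level is unknown. Genes were matched by name pattern, positions by chromosome, base and strand. Genes and lists were chosen with earlier results of these data known. Genes with a position in 2 libraries or with 3 or more positions are given site by site, the others by family. All 49 symbols were in a RefSeq table (GRCm38.p6), which was not used to place sites. By its gene bounds, without regard to strand, 17 overlap another gene, so a site's gene can be uncertain there. Shares carry exact (Clopper-Pearson) 95% intervals, and per-library measures were compared with exact permutation tests. A test on reads at a coverage of 20 was planned. Without reads, limma 3.58.1 (R 4.3.3) was fitted to log2 odds of levels held between 0.01 and 0.99, with Benjamini-Hochberg adjustment. It covered sites found in all 4 libraries and not tied within both labels. The fit was first run on simulated data with normal noise and large shifts. Those data lack levels held at the limits, so they do not show how small a change could be found here. P-values measure only the spread between these samples, which may be technical. The values of 1 gene, which is included in the counts, are not reported here.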

Additional observations from a re-analysis of the deposited data

How the results depend on the processing

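The share of listed genes that were immune genes, 0.180 points higher in the libraries labelled astrocyte, had no stable direction: leaving out 1 library at a time it ran from -0.228 to 0.588, and it turned to -0.170 without astrocyte replicate 2 and to -0.228 without microglia replicate 2. It was -0.579 in the replicate 1 libraries only, -0.163 over sites below 100% and -0.0932 as a share of sites. The median level stayed higher in the libraries labelled astrocyte under all 8 alternatives, from 1.04 to 32.5 points. Both astrocyte medians lay above both microglia medians, so alternatives that only left out libraries could not reverse this direction. The smallest difference, 1.04 points, was over sites below 100%. Positions listed in every library of 1 label and in none of the other numbered 0 for each label with all libraries. With 1 library left out they numbered 0 to 41 for astrocyte and 0 to 19 for microglia. In the replicate 1 libraries only they numbered 24 and 21. Fewer libraries have to list a base in these reduced sets. Limma called 0 sites in each alternative. With the replicate number as a block (replicate block) it called 0 of 354, smallest adjusted p = 0.892, with 10 at an unadjusted p under 0.05; deviations of same-numbered libraries correlated at -0.070 over 354 sites, and the labels give the numbers no shared source. Read depth is unknown, so an unlisted site cannot be read as unmethylated.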
